A study of Mus musculus with 10 samples.

Results

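Notch ligands, Notch receptors, the DNA-binding effector Rbpj and 2 genes transcribed in response to Notch signalling were followed in RNA-seq of mouse dendritic cells. The 10 genes were chosen by name and found by gene identifier: Dll1, Dll4, Jag1 and Jag2 (ligands), Notch1, Notch2 and Notch3 (receptors), Rbpj, and the targets Hes1 and Nrarp, out of 41813 genes listed per library. In activated against non-activated cells, Dll4 rose 62.5-fold and Jag1 2.42-fold, Jag2 fell, and the transcripts of Notch1 and Notch2 did not pass the test.

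Notch signalling runs between neighbouring cells. A ligand of the Delta-like or Jagged family on a signal-sending cell binds a Notch receptor on its partner, the receptor is cut first by an ADAM protease and then by gamma-secretase, and its freed intracellular part joins RBPJ on DNA with a Mastermind coactivator. Dendritic cells can be on both sides: they present ligands to T cells, which carry Notch receptors, and the development of some dendritic cell subsets itself depends on Notch receptors.

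The cells were dendritic cells grown from bone marrow, an in vitro model, of the labelled type CD11c+ MHCIIhigh, with 3 RNA libraries titled activated and 3 titled non-activated. The labels name no strain, genotype or age of the mice that gave the marrow, nor where each replicate came from, so the spread behind the p-values may be technical. By the series design, cells of both groups received LPS and were kept for 24 h with CD4-positive T cells of the OT-II line, whose receptor recognises an ovalbumin peptide. Only the activated cells had been pulsed with that peptide by this account. The sample labels differ from it, since they list LPS stimulation for the activated libraries alone, and the group names are therefore used here as titles. A further 4 samples of open chromatin were not analysed here.

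Summed expected counts ran from 21338012 to 27404937 per library. Markers of dendritic cells were abundant in all 6 libraries. They summed to 13110 to 16890 CPM (counts relative to library size, with TMM scaling) in the activated group and 14820 to 17290 in the other. Cd74, H2-Ab1 and H2-Aa led this sum, while Flt3 was at 19.51 CPM in activated and 19.65 in non-activated cells. Of 10 tested markers, 3 were higher in activated cells (Ccr7, Zbtb46 and Sirpa) and 1 lower (Itgam). Both replicate 1 libraries stood apart for T cell receptor constant region transcripts: Trac was at 7420 and 7444 CPM there and between 2.73 and 27.8 in the other 4, and Trbc2 at 107 and 106 against 0.504 to 1.88. The other 16 T cell markers, a set named after those values were seen, summed to 47.5 to 72.4 CPM with activation and 38.9 to 69.5 without it. Cd3e, which defines T cells, was at 1.90 CPM in activated replicate 1 and at 0.152 to 0.408 CPM elsewhere. Of the 18 T cell markers 10 could be tested, 3 were higher in activated cells (Lck, Zap70 and Cd247), 0 were lower and 0 were without a read in all libraries. Of all tested genes 15.9% were higher and 11.7% lower, against which this and the other marker counts in this paragraph are to be read. B cell markers summed to 2.33 to 3.98 CPM with activation and 0.761 to 1.30 CPM without it, led by Cd79b. Of 2 tested members 1 passed, Cd79b, higher in activated cells, with 51, 58 and 28 counts against 2, 1 and 7. Cd79b reached the minimum level for testing (0.412 CPM) through the activated libraries alone and so had to be higher. Endothelial and stromal markers summed to 93.7 to 154 against 103 to 117 CPM, most of it Kdr, with 0 of 4 tested members passing. Of the activated helper T cell markers 2 of 7 were tested: Il2 was higher and Icos lower in activated cells. Like Cd79b, Il2 had to be higher, with 232, 10 and 13 counts in activated and 0, 0 and 2 in non-activated replicates 1 to 3. The untested Tbx21 (52 against 2 counts), Ifng (45 against 2) and Ctla4 (44 against 11) also had more counts with activation. So had Cd40lg (38 against 0) and Il21 (25 against 0), and most of these counts were in activated replicate 1. The 1 tested plasmacytoid marker (Tcf4) was higher, and the 7 neutrophil and 5 NK cell markers were too low to test, with sums of at most 0.568 and 0.781 CPM. T cells also transcribe Notch genes, and the part of carried-over T cells in the results below was not tested. For the 10 genes, values without both replicate 1 libraries are given where they change a call. For the other pathway genes only the count that passed without those libraries is given. In RNA from a bulk culture, fewer cells of a type and less RNA per cell cannot be told apart.

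The 250 bases upstream of the annotated start are shown for Dll4 and Jag1, the ligands that rose, since this pair carries the main result. They come from RefSeq on GRCm38.p6, read 5′ to 3′ on the gene's strand, and capitals mark each CpG dinucleotide. The 4 ligand genes lie at chr2:119325784-119335666 (Dll4), chr2:137081451-137116520 (Jag1), chr12:112907803-112929812 (Jag2) and chr17:15367354-15376932 (Dll1). The upstream stretch of Dll4 is chr2:119325534-119325783 (plus strand) and that of Jag1 chr2:137116521-137116770 (minus strand).
Dll4: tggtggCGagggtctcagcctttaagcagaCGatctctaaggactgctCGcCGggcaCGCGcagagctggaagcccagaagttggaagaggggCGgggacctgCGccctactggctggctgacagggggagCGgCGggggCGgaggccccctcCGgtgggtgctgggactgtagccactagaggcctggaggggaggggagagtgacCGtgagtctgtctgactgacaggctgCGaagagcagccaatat
Jag1: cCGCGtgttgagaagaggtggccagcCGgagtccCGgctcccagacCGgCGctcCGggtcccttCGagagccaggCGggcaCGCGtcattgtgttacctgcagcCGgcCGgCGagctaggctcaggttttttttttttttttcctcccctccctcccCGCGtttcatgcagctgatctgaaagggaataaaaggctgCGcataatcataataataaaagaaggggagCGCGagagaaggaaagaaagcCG
The Jag1 stretch held 20 CpG and that of Dll4 14, with a GC content of 57.2% and 65.6%. Over windows reaching 50 bases past a transcript start (300 bases in all), 9 of the 10 genes had 11 entries, and those of Jag2 and Rbpj and 1 of Dll1 lay inside the annotated gene span. Their GC content ranged from 55.7% to 86.0%, where the median of all 32851 windows was 52.7%, and their CpG count from 15 to 63 with a median over all windows of 7. The RBPJ core TGGGAA was matched on either strand in 2 of the 11 windows, both of Rbpj itself, and in 25.6% of all windows. A kappaB-like pattern, GGNNNTTCC, was matched in 3 windows (Dll1, Notch2 and Nrarp; 18.5% of all), and an interferon regulatory factor-like pattern, GAAANNGAA, in 1, that of Jag1 (8.56% of all). No overlap between motifs was removed, and a match is only a run of letters in this window.

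Dll4, the Delta-like ligand best known from T cell development and blood vessel sprouting, was nearly silent in non-activated cells and abundant in activated ones. It was at 2.40, 1.47 and 2.39 CPM in non-activated replicates 1 to 3 and at 161, 122 and 111 CPM in activated replicates 1 to 3. Every activated library lay far above every non-activated one. The log2 fold change was 5.97 ± 0.22 (SE; edgeR quasi-likelihood test, Benjamini-Hochberg adjusted p = 1.99e-06), the 18th highest of 13946 tested genes, from 9525 counts against 157. Without both replicate 1 libraries it was 5.88. A long non-coding RNA, Gm14207, overlaps Dll4 and had 309 counts in activated and 15 in non-activated libraries. The sources used here do not say that strand was kept, so reads of this pair cannot be told apart where they overlap.

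Jag1, a Jagged ligand widely used between immune and stromal cells, was already present without activation and rose further. Its values were 81.0, 70.4 and 62.5 CPM in non-activated replicates 1 to 3 and 213, 154 and 150 CPM in the activated ones. The groups did not overlap, and replicate 1 was the highest library in each. The log2 fold change was 1.27 ± 0.15 (SE; edgeR adjusted p = 0.00063) and was 1.18 without both replicate 1 libraries.

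Jag2, the other Jagged ligand, moved the opposite way from a low level. Non-activated libraries held 6.89, 4.20 and 7.95 CPM and activated ones 1.64, 1.13 and 2.78, with no overlap. It fell by 1.77 ± 0.36 on the log2 scale (SE; edgeR adjusted p = 0.00785), 135 counts against 477. Dll1, the second Delta-like ligand, was scarce throughout: 19, 14 and 22 counts in non-activated replicates, or 0.723, 0.588 and 0.892 CPM, and 0.149, 0.196 and 0.245 CPM in activated ones. It fell by 1.88 ± 0.44 on the log2 scale (SE; edgeR adjusted p = 0.0139), a difference resting on 14 counts against 55 (95% Poisson intervals 7.65 to 23.5 and 41.4 to 71.6, counting error only). That call was lost when activated replicate 1 (edgeR adjusted p = 0.0511) or non-activated replicate 3 (0.0597) was left out, and without both libraries of any 1 replicate number (0.069 to 0.0927).

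**Figure D1:**
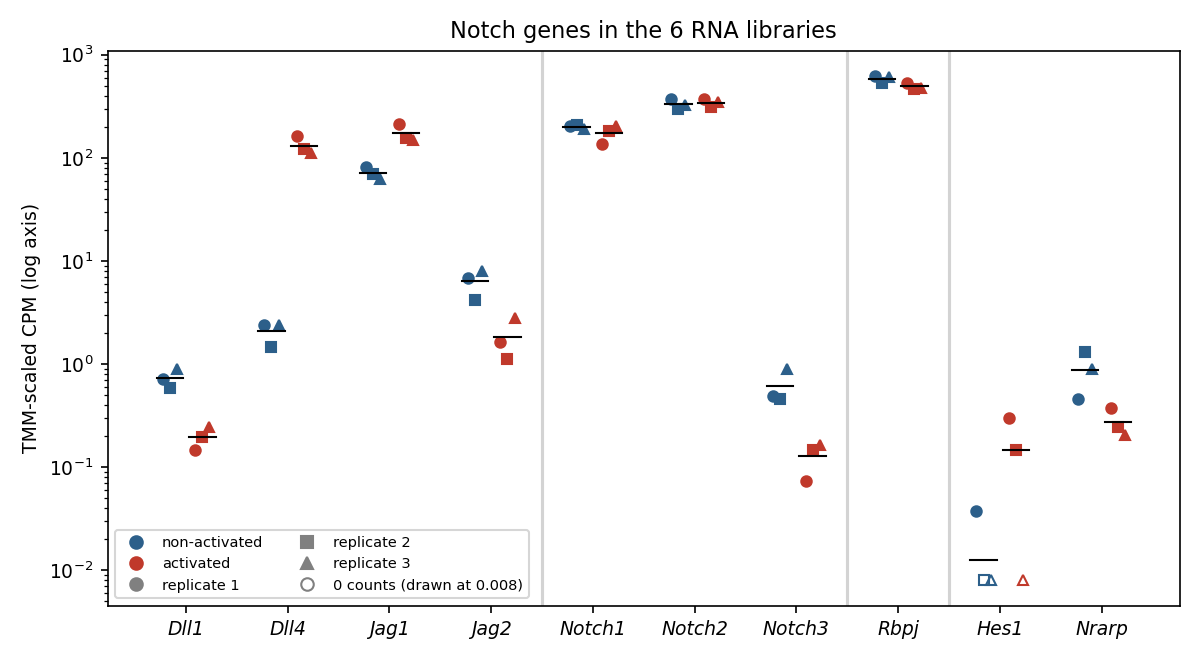
TMM-scaled CPM on a log axis for the 10 Notch genes, 1 symbol per library with its shape giving the replicate, and a bar at each group's mean; open symbols at the bottom mark 0 counts. Dll4 sits at 111 to 161 CPM in activated libraries (red) and at 1.47 to 2.40 CPM in the others (blue), while the groups overlap for Notch1, Notch2 and Rbpj.

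Levels of different genes were compared on the deposited TPM, which allows for gene length. The 4 ligands together came to 23.6 to 29.9 TPM in non-activated and 96.0 to 129 TPM in activated libraries. In non-activated cells Jag1 made up 80.5% ± 4.56 (SD, n = 3) of this sum, and the Delta-like ligands 6.00% ± 1.46. In activated cells the Delta-like share was 50.6% ± 1.21 and that of Jag1 48.5% ± 0.586. The ratio of Dll4 to Jag1 went from between 0.0306 and 0.0518 to between 1.00 and 1.07, so the 2 ligands stood at nearly equal TPM in each of the 3 activated libraries. These shares are described without a test, since they combine the listed genes.

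**Figure D2:**
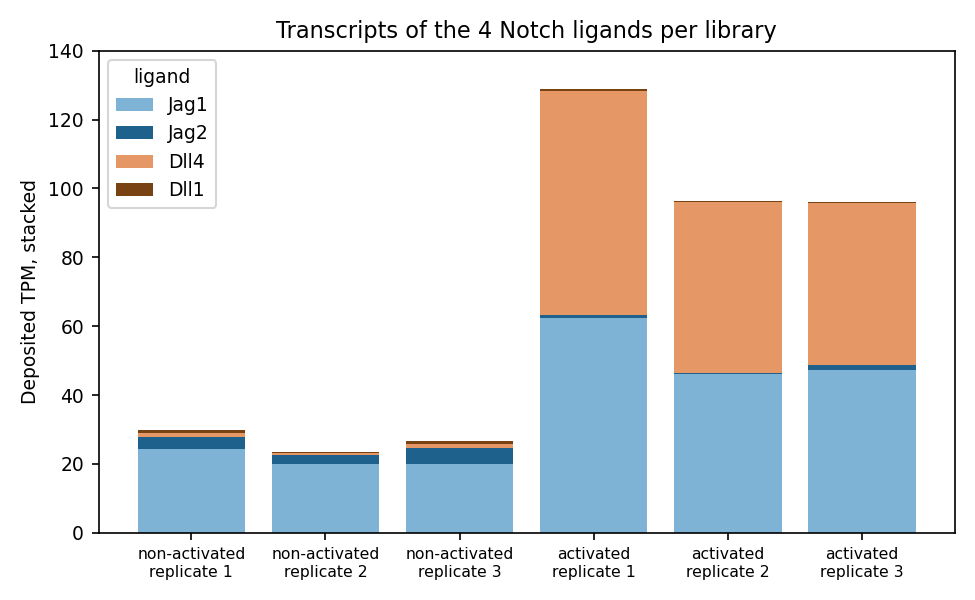
Deposited TPM of Jag1, Jag2, Dll4 and Dll1 stacked for each of the 6 libraries. The stack grows from 23.6 to 29.9 TPM in non-activated libraries to 96.0 to 129 TPM in activated ones, and the Dll4 segment accounts for 49.2% to 51.6% of the activated stacks.

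Among the receptors, Notch2, which supports splenic dendritic cell subsets, was the highest by CPM, which makes no allowance for gene length. On TPM the libraries of Notch2 and Notch1 overlapped in each group. The CPM of Notch2 overlapped between the groups (chr3:98013538-98150367). Its values were 370, 297 and 325 CPM in non-activated and 371, 310 and 348 CPM in activated replicates 1 to 3, with a log2 fold change of 0.05 ± 0.11 (SE; edgeR adjusted p = 0.756). The sign turned without activated replicate 1 (-0.03) or non-activated replicate 2 (-0.02). Notch1 (chr2:26457902-26503822), the receptor that drives T cell commitment, stood at 202, 210 and 188 CPM in non-activated and 137, 183 and 202 CPM in activated replicates. Activated replicate 1 was the lowest of the 6, and the log2 fold change of -0.20 ± 0.14 (SE; edgeR adjusted p = 0.308) was -0.08 without that library.

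The deposited gene length differs between libraries where a gene has several isoforms, since RSEM weights it by their estimated shares. It ran from 5398 to 8793 bases for Notch1, a 1.63-fold range, and the extremes were activated replicate 3 and non-activated replicate 3. For Notch2 it ran only from 10424 to 10500 bases, but for Jag2 it varied 1.99-fold and for Dll1 4.72-fold, from 605 to 2856 bases. These lengths enter the ligand shares and the order by TPM, and Dll1, whose CPM did not overlap between the groups, did overlap on TPM. On TPM, Notch1 was highest in activated replicate 3 (58.6) and lowest in activated replicate 1 (28.5), with 33.8 to 49.3 in non-activated libraries. Whether the isoforms themselves differed was not tested.

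**Figure D3:**
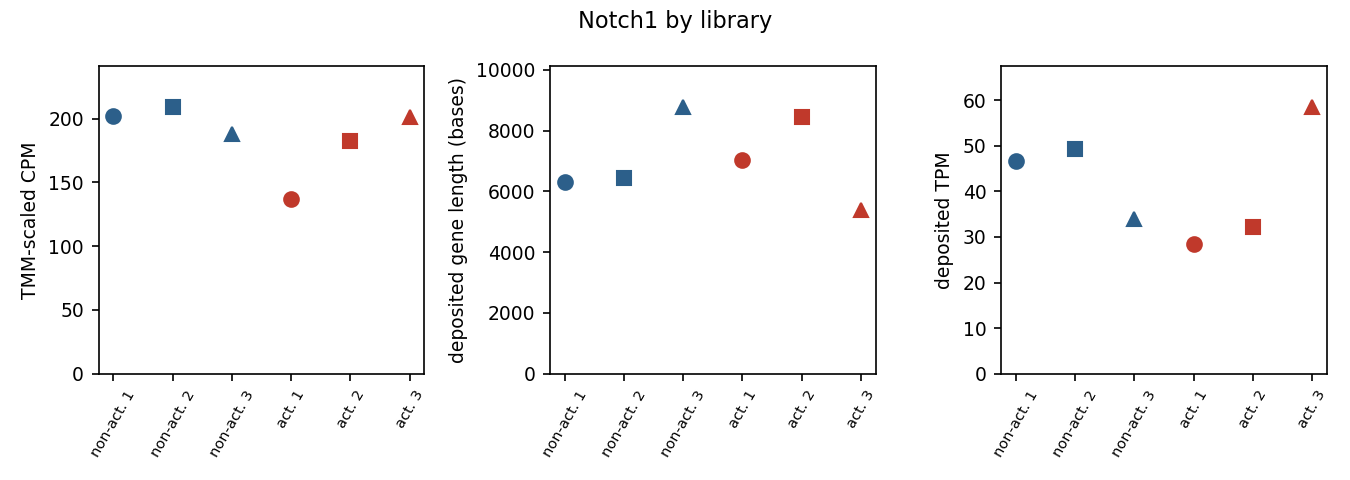
Notch1 in the 6 libraries as TMM-scaled CPM, deposited gene length in bases and deposited TPM, each axis starting at 0. Activated replicate 3 has the shortest length (5398 bases) and the highest TPM (58.6), although its CPM (202) lies among the non-activated values of 188 to 210.

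Notch3 (chr17:32120820-32166896), a receptor typical of vessel-supporting mural cells, was close to silent. It had 13, 11 and 22 counts in non-activated and 2, 3 and 4 in activated replicates 1 to 3, or 0.616 ± 0.239 and 0.128 ± 0.0474 CPM (SD, n = 3), without overlap. It fell by 2.24 ± 0.54 on the log2 scale (SE; edgeR adjusted p = 0.0168). Leaving out activated replicate 1 (edgeR adjusted p = 0.058) or non-activated replicate 3 (0.072) ended the call, as did leaving out both libraries of any 1 replicate number (0.0666 to 0.111). Of the endothelial and stromal markers, Pdgfrb, which mural cells carry, was at 1.46 CPM in activated and 0.781 in non-activated cells (edgeR adjusted p = 0.169). Acta2 was at 0.496 and 0.598 (0.74), and Kdr at 116 and 99.0 (0.38). Pecam1 was lower in activated cells without overlap, at 6.462 and 9.485 CPM, and did not pass (edgeR adjusted p = 0.0596). The untested Cdh5 had 2 counts in activated and 8 in non-activated libraries and Col1a2 2 and 0, while Col1a1 had 0 counts throughout. The part of such cells in the Notch3 values was not tested.

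Rbpj (chr5:53555779-53657445) was the most abundant of the 10 genes by TPM in each library. It was at 622, 526 and 606 CPM in non-activated and 529, 469 and 479 CPM in activated replicates 1 to 3, so the groups overlapped although each activated library lay below the non-activated one of the same number. The log2 fold change of -0.25 ± 0.10 (SE) did not pass (edgeR adjusted p = 0.106). With the replicate number as a block, taken as a pairing because libraries of the same number deviated together, Rbpj passed at nearly the same size (log2 fold change -0.25, edgeR adjusted p = 0.0314), as it did in DESeq2 (-0.26, adjusted p = 0.0485).

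The 2 direct targets were almost absent. Hes1 (chr16:30065357-30067796), a transcriptional repressor switched on by Notch in many tissues, had 1, 0 and 0 counts in non-activated and 8, 3 and 0 in activated replicates 1 to 3, too few to be tested. Its 11 counts in activated libraries (95% Poisson interval 5.49 to 19.7, counting error only) and 1 in non-activated ones (0.0253 to 5.57) did not separate the groups, since activated replicate 3 had none. Activated replicate 1, which held 8 of the 11, was also the library with the most Cd3e. Nrarp (chr2:25180758-25183339), a feedback inhibitor of the Notch complex, was lower in activated cells, at 0.372, 0.245 and 0.204 CPM against 0.457, 1.30 and 0.892. The groups did not overlap, and Nrarp fell by 1.65 ± 0.51 on the log2 scale (SE; edgeR adjusted p = 0.0441), on 20 counts against 65. This call was lost with the replicate block (edgeR adjusted p = 0.0543) and without any 1 library except non-activated replicate 1 (0.057 to 0.171).

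Of the 10 genes 9 were tested. In activated cells 2 were higher (Dll4 and Jag1; 15.9% of all tested genes were higher), 4 were lower (Dll1, Jag2, Notch3 and Nrarp; 11.7% of all) and 3 did not pass, where 27.6% of all tested genes passed in either direction. These calls are from the unpaired fit. With the replicate block Rbpj was lower as well and Nrarp did not pass (edgeR adjusted p = 0.0314 and 0.0543), where 5184 of 13946 genes passed. CPM did not overlap between the groups for 6 of the 9, against 44.7% of all tested genes. The median log2 fold change was -0.25 over the 9 and 0.01 over all tested genes. Dll1, Notch3 and Nrarp reached the minimum level for testing, 0.412 CPM, through the non-activated libraries alone. A gene kept in that way had to be lower in activated cells, so these 3 add nothing to the count of lower genes, to the count without overlap or to the median. At a minimum of 1 CPM in 3 libraries, 3 of the 10 genes changed: Dll4, Jag1 and Jag2. That filter left Dll1, Notch3 and Nrarp untested, so their calls were not lost in a test there.

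Ordered by mean TPM, non-activated cells had Rbpj (183), Notch2 (47.6), Notch1 (43.2), Jag1 (21.4), Jag2 (3.62), Dll4 (0.867), Dll1 (0.76), Nrarp (0.55), Notch3 (0.12) and Hes1 (0.0367). Neighbours in this order did not overlap except Notch2 with Notch1, Dll4 with Dll1, Dll1 with Nrarp, and Notch3 with Hes1. In activated cells Rbpj (154 TPM) was again first without overlap. Dll4 (54.0), Jag1 (51.9), Notch2 (48.9) and Notch1 (39.7) followed with overlapping libraries, so their order was not resolved. Jag2 (0.867), Dll1 (0.253), Hes1 (0.167) and Nrarp (0.167) overlapped in turn, and Notch3 (0.0233) was last.

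The other pathway genes were counted by list, to be read against the 15.9% of all tested genes that were higher and the 11.7% that were lower. With so few genes a list, no count is called particular to its list. Of 4 ubiquitin ligases that act on ligands in the sending cell, Neurl1a rose and 3 did not pass, of which Mib1 and Mib2 were lower with the replicate block (edgeR adjusted p = 0.0383 and 0.00366). Neurl1a was at 0.457, 0.546 and 0.811 CPM in non-activated and 7.55, 5.35 and 4.57 CPM in activated replicates 1 to 3, a 9.59-fold rise (edgeR adjusted p = 0.000213). Mib1, the ligase with the broadest known role in ligand activity, was far more abundant, at 141 ± 3.32 CPM in activated and 163 ± 3.40 in non-activated cells (SD, n = 3; edgeR adjusted p = 0.0552). Of 5 glycosyltransferases that decorate the receptor's extracellular repeats, 3 rose and 0 fell (median log2 fold change 0.71, against 0.01 over all tested genes). Lfng, the Fringe enzyme known to favour Delta-like over Jagged ligands, went from 48.4 ± 1.19 to 119 ± 1.24 CPM (2.45-fold, edgeR adjusted p = 1.5e-05). Poglut1, which adds O-glucose, rose 2.89-fold and Pofut1, which adds O-fucose, 1.64-fold, whereas the other Fringe genes Mfng (0.955 against 1.17 CPM) and Rfng (14.9 against 16.6 CPM) did not pass.

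Of 10 genes for the proteases that cut Notch receptors, Adam17 rose 1.24-fold (edgeR adjusted p = 0.0118), Aph1c of gamma-secretase fell from 46.8 to 26.4 CPM (edgeR adjusted p = 0.00284), and 8 did not pass, among them Adam10 (105 against 96.8 CPM). With the replicate block Psen2 was also higher (edgeR adjusted p = 0.00242). Aph1c and Aph1b are closely similar genes, so their expected counts are uncertain where reads were shared. The Adam17 call did not hold with non-activated replicate 2 (edgeR adjusted p = 0.0602) or 3 (0.0566) left out, nor on TPM (limma adjusted p 0.128 to 0.191).

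In the nucleus, 1 of 6 coactivator genes rose: Maml2, of the Mastermind family, went from 11.9 ± 0.910 to 25.4 ± 4.28 CPM (SD, n = 3; edgeR adjusted p = 0.000772), while Maml1 and Maml3 did not pass. Of 11 genes whose products repress with RBPJ, Tle3 rose 1.52-fold, Cir1 and Ctbp1 fell (26.3 against 39.6 and 145 against 184 CPM), and 8 did not pass. The Ctbp1 call was lost in 6 of 18 alternatives, among them leaving out non-activated replicate 2 (edgeR adjusted p = 0.0561) and all 3 fits on TPM (limma adjusted p 0.0825 to 0.14). Without both libraries of replicate 3 the calls of Tle3 (edgeR adjusted p = 0.0565) and Cir1 (0.0555) were lost as well. With the replicate block Kat2b and Tle4 were also higher (edgeR adjusted p = 0.0279 and 0.0414).

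Among 12 genes of receptor trafficking and turnover 3 rose, 2 fell and 7 did not pass. Of the Deltex relatives, Dtx3l (1.79-fold) and Dtx2 (1.67-fold) rose, Dtx4 did not pass (log2 fold change 0.00), and Dtx3 (43.1 against 59.7 CPM) was lower only with the replicate block (edgeR adjusted p = 0.00202, and 0.143 without it). Dtx1, itself a known Notch target, fell to 10, 1 and 7 counts in activated from 35, 26 and 31 in non-activated replicates 1 to 3 (edgeR adjusted p = 0.0126). Like the scarce genes above, Dtx1 had no activated library over the minimum level for testing and so had to be lower, and its call did not hold on TPM (limma adjusted p = 0.0527 with a pseudocount of 0.1). The ubiquitin ligase subunit Fbxw7, which marks the freed Notch fragment for degradation, rose 1.30-fold (edgeR adjusted p = 0.035). Its call held with the replicate block (edgeR adjusted p = 0.0216) and was not followed through the other alternatives. Aak1 fell (69.9 against 85.6 CPM, edgeR adjusted p = 0.0268). The Aak1 call was lost without 4 of the 6 libraries in turn: activated replicates 2 and 3 and non-activated replicates 1 and 3. Nedd4 was higher with the block (edgeR adjusted p = 0.0372).

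Other target genes were mostly too low to test. Of 10, only Hes6, Myc and Ccnd1 were tested, and Hes2, Hes5, Hes7, Hey1, Hey2, Heyl and Ptcra were not. Hey1 had 11, 6 and 11 counts in non-activated and 5, 0 and 0 in activated replicates 1 to 3. Ccnd1, a cell cycle gene with many other inducers, was 2.59-fold higher (edgeR adjusted p = 0.0464), a call lost without any 1 library except activated replicate 1. Myc was at 16.2 CPM in activated replicate 1, 6.72 and 5.84 in the other activated libraries and 4.54 to 5.50 in non-activated ones, and did not pass (edgeR adjusted p = 0.104, or 0.0446 with the replicate block). The remaining ligand and receptor genes Dll3, Dlk1, Dlk2, Dner and Notch4 had between 0 and 18 counts per group of 3 libraries. Over all 63 of these pathway genes, 11 of 51 tested were higher and 5 lower, with a median log2 fold change of 0.07, where 15.9% of all tested genes were higher and 11.7% lower. With the replicate block 16 were higher and 8 lower, where 2787 of all 13946 tested genes were higher and 2397 lower in that fit.

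**Figure D4:**
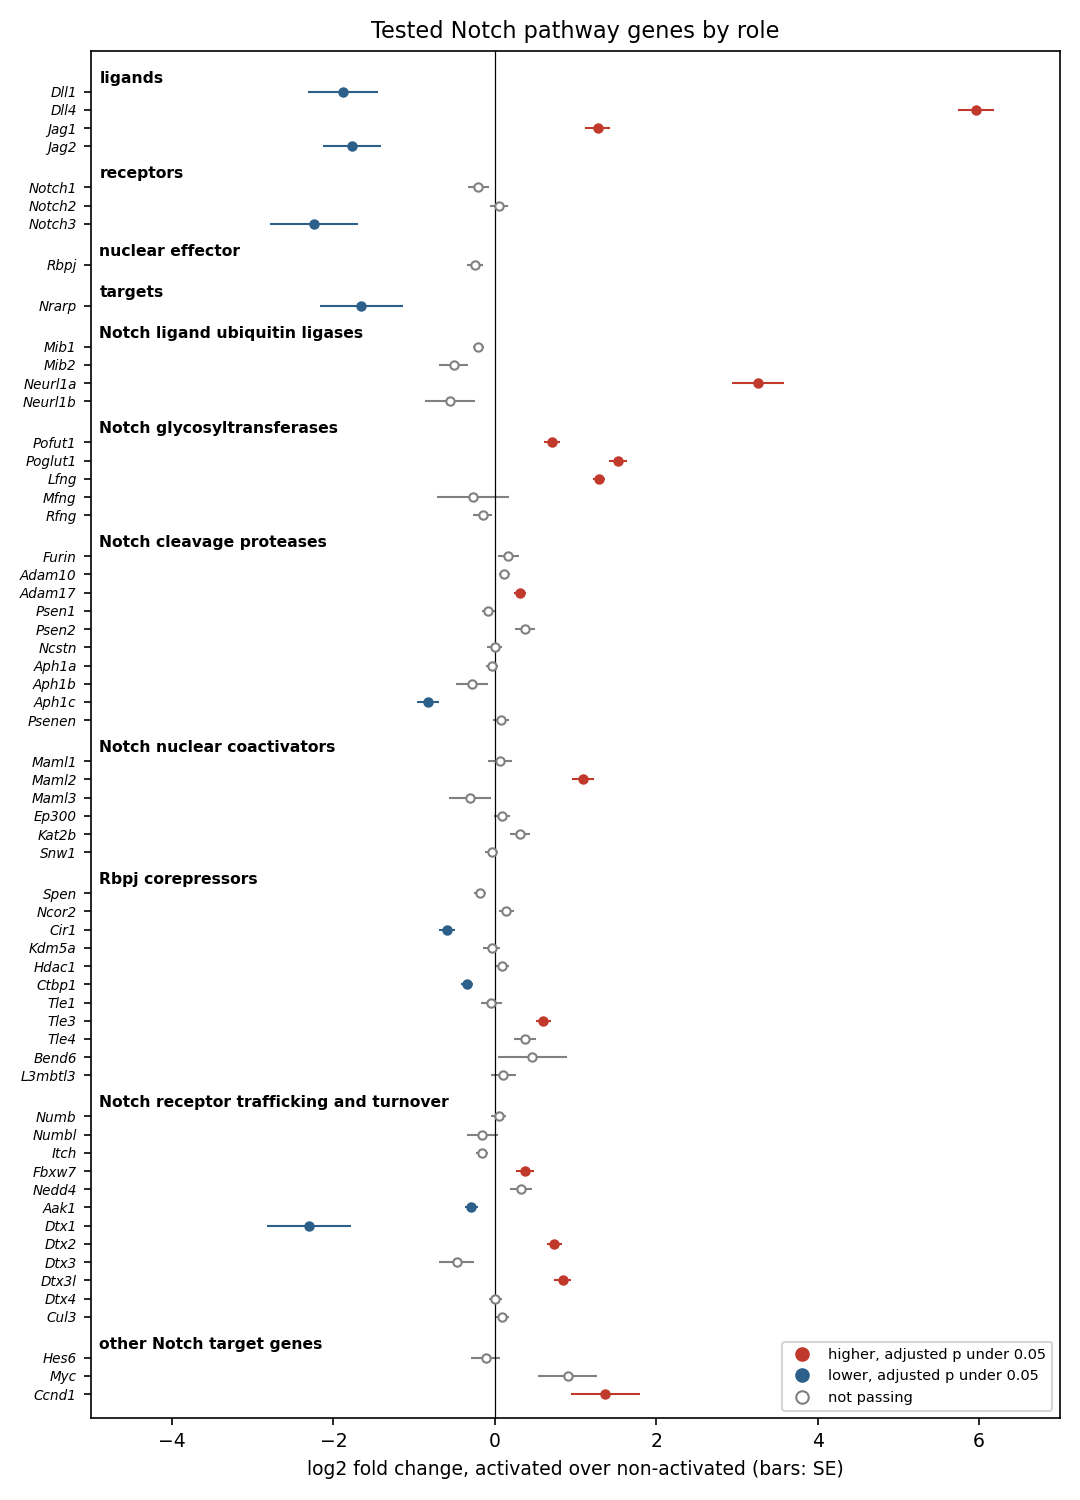
Log2 fold change of activated over non-activated cells with its SE for the 60 tested genes, grouped by role; filled symbols passed an edgeR adjusted p of 0.05. Dll4 lies at 5.97 and Neurl1a at 3.26, while Notch1, Notch2 and Rbpj lie within 0.25 of 0.

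The genes with the most similar pattern were found by the root mean square difference of log2 CPM, centred per gene, over the 6 libraries. The log2 CPM held a prior count of 2, which shrinks the differences of scarce genes. For Dll4 the closest were Wnt3 (difference 0.37) and Plin1 (0.41). Wnt3 had 0 counts in each non-activated library and a mean of 5.32 CPM in activated ones. Plin1 was at 6.71 CPM in activated and 0.0516 in non-activated libraries. Both reached the minimum level for testing through the activated libraries alone and so had to be higher. Their log2 fold changes were 10.02 and 6.84, against 5.97 for Dll4. Jag1 was closest to Kdm1b (0.09) and Psma6 (0.09), and Jag2 to Syn3 (0.17) and Aif1 (0.18). Notch2 was closest to Ankrd11 (0.03) and to the coactivator gene Ep300 (0.03), and Rbpj to Ndufab1 (0.02) and Pias1 (0.02). Of the scarce genes, Notch3 was closest to Dll1 (0.18) and Wdr86 (0.21), Dll1 to Galc (0.15) and Susd3 (0.17), and Nrarp to P3h2 (0.28) and S100a4 (0.29). Notch3, Dll1 and Nrarp had to be lower, as stated above. A close neighbour over 6 libraries is a description only.

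**Figure D5:**
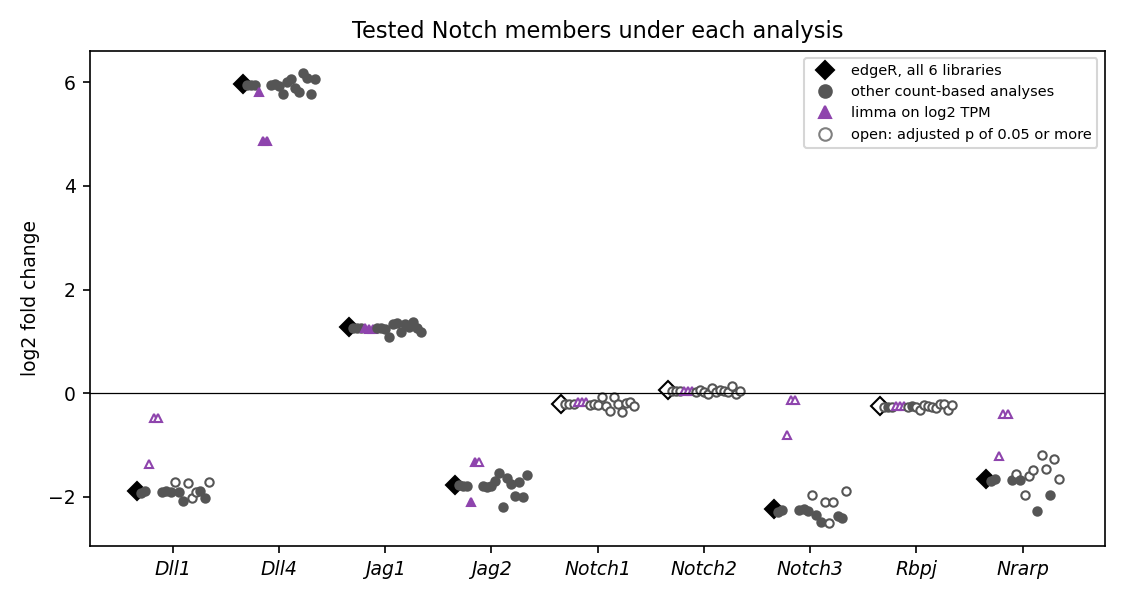
Log2 fold change of the 9 tested Notch genes in the edgeR fit of all 6 libraries (diamonds), in the other count-based analyses (circles) and in limma on log2 TPM (triangles); filled symbols passed an adjusted p of 0.05. Dll4 (4.87 to 6.18) and Jag1 (1.07 to 1.38) passed in each of the 18 alternatives, whereas Nrarp passed in 6 of 17.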

How the data were processed

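The authors deposited 1 gene table per RNA library in RSEM layout. Per the file headers, each holds an expected count, a TPM, an FPKM (not used here) and a gene length. The build was GRCm38, per the submitters' processing notes, and for RNA an aligner was not given in the sources used. Per the labels, libraries were made from 200 ng of RNA and read as 60 nt single reads. Symbols were matched by gene ID to 41597 of 41813 genes.

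Expected counts were rounded and tested in R 4.3.3 with edgeR 4.0.16: genes were filtered with filterByExpr (13946 left), scaled by TMM and fitted on group alone with glmQLFit and glmQLFTest, with Benjamini-Hochberg adjustment over all of them and a threshold of 0.05. The SE is the log2 fold change over the root of F. The fit was tested on simulated data. DESeq2 1.42.0 and limma 3.58.1 on the deposited TPM (pseudocount 1 or 0.1) were alternatives; a fold change on the log2(TPM + pseudocount) scale understates that of low genes. The common biological coefficient of variation was 16.9%.

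Titles share replicate numbers. The main fit left these numbers out, and a fit with them as a block was an alternative. After subtracting each group's mean, same-numbered libraries correlated at 0.398, 0.313 and 0.187 and others at -0.315 to 0.04, so the numbers were taken to pair the samples, by these data and not by the labels. Replicates differed beyond counting noise (chi-square per degree of freedom 14.0 to 65.1), so no 2 were counted as 1 library, which does not show that they came from separate cultures.

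The genes and lists were chosen with earlier results of these data known. Named were the 10 genes, up to 4 passing genes per pathway list by adjusted p, the 2 nearest genes per member, and marker lists; other pathway genes were named after their values were seen. Marker lists of neutrophils, NK cells, plasmacytoid dendritic cells and activated helper T cells were also summed. A further marker list and the nearest genes of Notch1 are not reported here.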

Additional observations from a re-analysis of the deposited data

How the results depend on the processing

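Dll4 and Jag1 kept direction and call in all 18 alternatives. The minimum of 1 CPM in 3 libraries left Dll1, Notch3 and Nrarp untested. The count of Notch genes that changed (6) was 3 at 1 CPM in 3 libraries, 3 or 2 in limma on TPM, 3 without both libraries of replicate 2 or 3, and 3 to 6 with 1 library left out; those lower (4) were 1, then 1 or 0, then 2, 1 and 1 without both libraries of replicates 1, 2 and 3, and 1 to 4. Dll1 was -1.36 in limma on log2(TPM + 0.1) and -0.48 on log2(TPM + 1), filtered or not; Notch3 -0.81 and -0.13; Nrarp -1.21 and -0.40; none of these passed. Jag2 was -1.33 on log2(TPM + 1) without a filter (limma adjusted p = 0.0557). Without both libraries of replicates 1, 2 and 3, Dll1 was -1.73, -2.02 and -1.92 and Notch3 -2.11, -2.51 and -2.11, not passing; Nrarp was -1.20 and -1.47 without those of replicates 2 and 3, not passing, and passed at -2.28 without those of replicate 1. With 1 library left out, Dll1 ranged from -2.09 to -1.72, Notch3 from -2.48 to -1.88, Nrarp from -1.97 to -1.27 and Notch2 from -0.025 to 0.143, turning sign without activated replicate 1 (-0.025) or non-activated replicate 2 (-0.021).

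In the paired fit (replicate block) Rbpj passed at -0.25 and Nrarp lost its call at -1.57; 24 pathway genes, not 16, passed (16 higher, not 11; 8 lower, not 5), 5184 of all genes passed, and no other call among the 9 genes changed. Rbpj was -0.26 in DESeq2. Over all genes, 3848 passed (2216 higher, 1632 lower), and 1882 (1163 and 719) on unfiltered TPM, 2052 (1277 and 775) without both libraries of replicate 2 and 1785 (1185 and 600) without those of replicate 3; with 1 library left out the count was 2679 to 3629 (1586 to 1956 higher; 1061 to 1673 lower, the fewest without non-activated replicate 2). Pathway genes that passed (16) were 10 in limma on TPM (2 lower), 9 unfiltered (7 higher, 2 lower) 9 without both libraries of replicate 3 (1 lower) and 19 without those of replicate 1. The cause was not tested. Hes1, fitted only without a filter, did not pass (edgeR adjusted p = 0.248). Recomputing TPM from rounded counts left the Delta-like share at 50.6% and 6.05%. Counts under 100 a group limit Dll1, Notch3, Hes1 and Nrarp.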
